A study of Mus musculus with 2 samples.

Results

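Sox2 (ENSMUSG00000074637), Sox9 (ENSMUSG00000000567) and Sox17 (ENSMUSG00000025902) were the 3 SOX transcription factor genes described here, out of 479 genes on an imaging panel that counts single RNA molecules in tissue sections (Xenium). They were chosen by name and not by their levels. Their counts were read in both deposited matrices, and their levels and joint detection were taken in segmented cells, called barcodes here, with at least 80 gene counts. Barcodes were grouped by their own counts of 3 other genes. Krt8, a keratin of simple epithelia, at 3 or more counts was combined with Epcam, an epithelial adhesion protein, at 5 or more, at 2 to 4 or at 0 to 1 counts. Pecam1, an adhesion protein of the endothelium, at 1 or more counts set the Pecam1 gate, which overlaps the Krt8 gates.

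The samples were 2 sections of mouse tumours grown under the skin, 1 from the RKP line and 1 from the EKP line, and the labels name them diffuse gastric cancer. For both, 3000000 cells from flat culture were taken up in Matrigel and placed under both flanks of C57BL/6 mice aged 5 weeks. Tumours of similar final volume were fixed, embedded in paraffin in 1 block and cut onto 1 slide. The series concerns the Y42C mutation of the small GTPase RHOA. The labels do not spell out the letters of the line names, do not say which line carries mutant RHOA, and do not say whether a line is 1 clone or how many animals a section stands for. With 1 section per line there is no replicate, so no difference below has a test. A gene was called higher or lower past a 2-fold ratio as a rule of size. Intervals in parentheses are exact 95% Poisson, binomial or conditional binomial intervals and cover counting error only.

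SOX proteins are transcription factors that bend DNA through a shared HMG box. SOX2 is known for keeping stem cells undifferentiated and for patterning the foregut, from which the stomach forms. SOX9 marks stem and progenitor cells at the base of gut glands and ductal progenitors of other organs, and directs cartilage formation. SOX17 specifies the endoderm in the embryo and acts in arterial endothelium.

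The RKP section held 255744 barcodes and 44294494 gene counts, and the EKP section 261111 barcodes and 31597828 gene counts. At 80 or more counts there were 201447 RKP barcodes and 133173 EKP barcodes, which is 78.8% and 51.0% of each section, with medians of 185 and 191 counts. Levels are given as counts per 1000000 gene counts (CPM) summed over the barcodes of a gate. The highest negative control probe reached 3.66 CPM in RKP and 9.84 CPM in EKP. The files share 19 barcode names, which are assigned within each library.

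Over whole sections, including shallow barcodes, Sox9 was higher in the RKP tumour, Sox17 was higher in the EKP tumour, and Sox2 differed by less than 10% with a sign that depended on the scaling. Sox9 had 4651 CPM in RKP (4631–4671) and 1837 CPM in EKP (1822–1852), a ratio of 2.53 (2.51–2.56). Sox17 had 176 CPM in RKP (172–180) and 460 CPM in EKP (452–467), 2.62-fold higher in EKP (2.54–2.69). Sox2 had 4605 CPM in RKP (4585–4625) and 4979 CPM in EKP (4955–5004), a log2 ratio of RKP over EKP of -0.11. Of 477 genes above the control probes, 8.18% passed 2-fold in favour of RKP and 34.8% in favour of EKP, and their median log2 ratio was -0.43, so that Sox2 turned to 0.32 under a scaling to the median gene. Ranked from the gene most in favour of RKP, Sox9 stood at 26, Sox2 at 197 and Sox17 at 338.

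**Figure D1:**
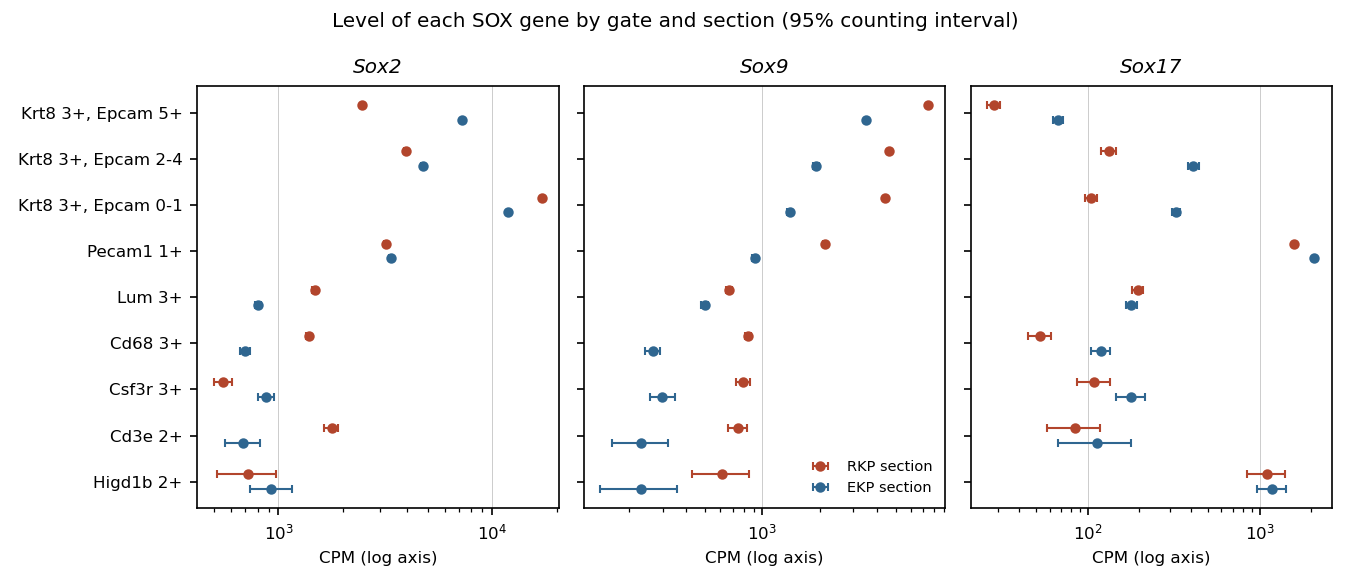
Levels of Sox2, Sox9 and Sox17 in CPM (horizontal log axis) by barcode gate (vertical axis) in the RKP section and the EKP section, with each gate's pooled value as a point and its exact 95% Poisson interval as a bar. Sox2 peaked in Krt8 barcodes with 0 to 1 Epcam counts at 17023 CPM in RKP and 11805 CPM in EKP, Sox9 was higher in RKP in each gate drawn for both sections, and Sox17 was highest in Pecam1 barcodes, at 1596 CPM in RKP and 2078 CPM in EKP.

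Sox2 was placed differently along Epcam in the RKP and EKP tumours. In Krt8 barcodes with 5 or more Epcam counts, it had 2463 CPM in RKP (2440–2486) and 7242 CPM in EKP (7192–7292), 2.94-fold higher in EKP (2.91–2.97). In Krt8 barcodes with 0 to 1 Epcam counts it had 17023 CPM in RKP (16916–17132) and 11805 CPM in EKP (11692–11919), a ratio of 1.44 (1.43–1.46). The RKP over EKP log2 ratio was thus -1.56 at high and 0.53 at low Epcam, opposite in sign. Sox2 ranked 423 of 465 genes from the RKP side in the first gate, where 24.7% of genes passed 2-fold in favour of EKP, and 101 of 472 in the second. The gates held 67903 RKP and 40134 EKP barcodes at high Epcam, and 26948 RKP and 15785 EKP barcodes at low Epcam, with median depths of 249 and 268 counts and of 192 and 208 counts. The low-Epcam ratio depended on how the gate was cut: with each barcode thinned to 80 counts before gating, its log2 value was 0.048.

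Within a section, the contrast between Epcam levels was wider in RKP than in EKP. Sox2 at high Epcam was 6.91-fold lower than at low Epcam in RKP (6.83–6.99), rank 398 of 427 genes, where 37.5% of genes were at least 2-fold lower. In EKP it was 1.63-fold lower at high Epcam, rank 219 of 472, a log2 ratio of -0.70 beside a median of -0.76 over all genes, and 0.083 under the scaling to the median gene. Over all alternatives the EKP log2 ratio ran from that value to -1.19, found without barcodes holding Ptprc, Cd68, Lum or Pecam1. The RKP log2 ratio ran between -3.04 and -2.10. Taken in finer steps of 0, 1, 2 to 4, 5 to 9, 10 to 19 and 20 or more Epcam counts, the RKP level of Sox2 was 18874, 11248, 3958, 2396, 2467 and 2515 CPM. Over the same steps the EKP level was 12959, 7373, 4748, 6321, 7510 and 7492 CPM. RKP barcodes thus reached a low plateau from 5 Epcam counts on, while EKP barcodes were lowest at 2 to 4 Epcam counts and higher again above. With every barcode thinned to 80 counts, the share with Sox2 at 10 to 19 Epcam counts was 15.9% in RKP and 40.3% in EKP. At 0 Epcam counts it was 64.3% in RKP and 53.8% in EKP, the same order between sections as in CPM. The Epcam steps were still cut on unthinned counts, so depth was not equalized along Epcam.

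**Figure D2:**
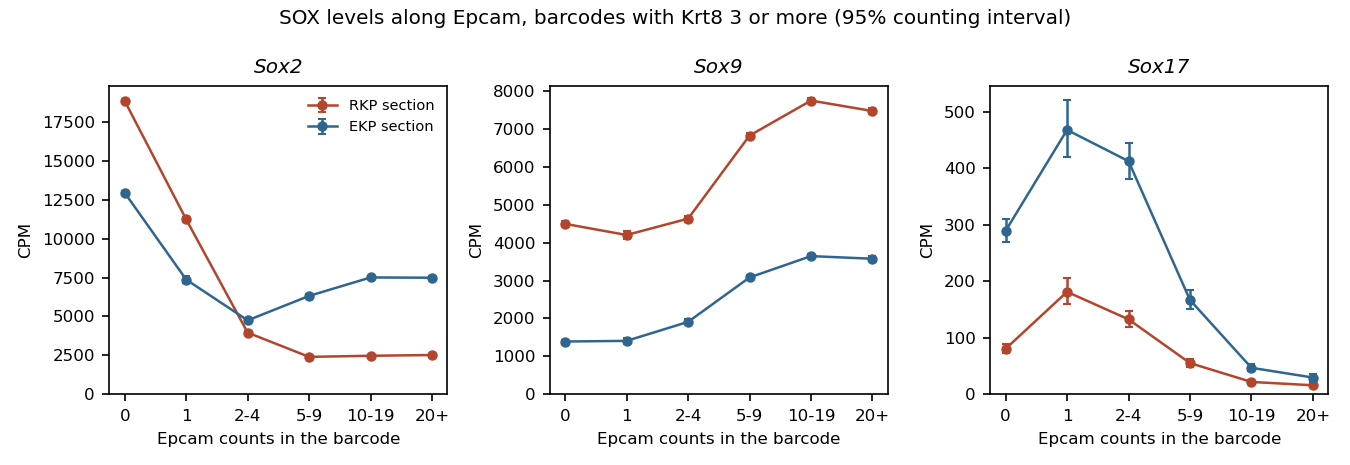
Levels of Sox2, Sox9 and Sox17 in CPM (vertical linear axes) in Krt8 barcodes by Epcam count (horizontal axis) for the RKP and EKP sections, with exact 95% Poisson intervals as bars. Sox2 in RKP was 18874 CPM at 0 Epcam counts and 2515 CPM at 20 or more, against 12959 and 7492 CPM in EKP, while Sox9 was higher in RKP at every step.

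Over all gates, Sox2 was highest in low-Epcam Krt8 barcodes in both tumours. Next came Krt8 barcodes with 3 or more summed counts of the neuroendocrine genes Scg2, Snap25 and Ptprn2, 163 barcodes in RKP and 1323 in EKP, at 10902 CPM in RKP (10040–11818) and 10388 CPM in EKP (10094–10688). In RKP that level overlapped with 10000.4 CPM (8830–11282) in 178 barcodes gated on the mast cell enzyme gene Cpa3, and was followed by 3958 CPM at 2 to 4 Epcam counts, 3171 CPM with Pecam1 and 2829 CPM (2565–3112) in the lymphatic gate of Prox1 and Mmrn1. In EKP the high-Epcam gate came next, then 4748 CPM at 2 to 4 Epcam counts and 3356 CPM with Pecam1. Of the Pecam1 barcodes, 27.8% in RKP and 29.1% in EKP also held 3 or more Krt8 counts. Those with 0 to 2 Krt8 counts held 3861 of the gate's 12724 Sox2 counts in RKP and 3406 of 15682 in EKP. Fibroblast barcodes gated on Lum had 1477 CPM in RKP and 800 CPM in EKP, those with the macrophage gene Cd68 1383 CPM in RKP and 699 CPM in EKP, and those with the T cell gene Cd3e 1771 CPM in RKP and 682 CPM (560–822) in EKP. Lowest in RKP were 691 CPM (618–770) in barcodes with the basal keratin Krt5, overlapping with 718 CPM (515–974) in pericyte barcodes with Higd1b, and 549 CPM (498–604) in neutrophil barcodes with Csf3r. In EKP the last 2 gates had 925 CPM (734–1151) and 875 CPM (800.2–955), so from Higd1b through Lum the EKP neighbours overlapped in their intervals.

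Most Krt8 barcodes with low Epcam carried Sox2 in both tumours. It was detected in 73.6% of these barcodes in RKP and in 70.0% in EKP, and at 5 or more counts in 30.1% and 21.5%. In Csf3r barcodes, which are shallower with medians of 125 counts in RKP and 129 counts in EKP, a count of Sox2 was found in 5.64% in RKP and 8.98% in EKP. At high Epcam it was detected in 37.1% of RKP barcodes and 70.4% of EKP barcodes, and reached 5 or more counts in 1.61% of RKP and 12.7% of EKP barcodes. Among all barcodes with at least 5 Sox2 counts, 12435 in RKP and 9169 in EKP, the low-Epcam Krt8 gate held 65.3% in RKP and 37.1% in EKP, and the high-Epcam gate held 8.80% in RKP and 55.6% in EKP. Outside the Krt8 gates, barcodes with 0 to 2 Krt8 and 0 to 1 Epcam counts held 19.95% in RKP and 3.94% in EKP. In RKP that share was larger than the share of the high-Epcam gate, so the Krt8 minimum left out part of the Sox2-rich barcodes. The barcodes richest in Sox2 therefore lay mostly at low Epcam in RKP and mostly at high Epcam in EKP.

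Among barcodes with 0 to 1 Epcam counts, Sox2 was higher with each step of Krt8. At Krt8 counts of 0, 1 to 2, 3 to 4, 5 to 9 and 10 or more it had 1463, 6101, 12961, 18535 and 23106 CPM in RKP, and 601, 2813, 6677, 12532 and 17819 CPM in EKP. The RKP value was above the EKP value at each step. At Krt8 counts of 10 or more, 60.5% of RKP barcodes and 52.0% of EKP barcodes held at least 5 Sox2 counts. Sox9 followed the same order along Krt8, with 882 CPM in RKP and 334 CPM in EKP at no Krt8 count, and 5109 CPM in RKP and 1654 CPM in EKP at 10 or more. Along the same steps Sox17 had 474, 338, 173, 71.3 and 22.2 CPM in RKP, lower at each step, and 702, 773, 524, 294 and 98.7 CPM in EKP, highest at 1 to 2 Krt8 counts.

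Sox2 was uneven over the low-Epcam barcodes of the RKP section. When each matrix was divided into 10 successive stretches of equal barcode number, whose relation to place in the tissue is not given, Sox2 in this gate had 781, 470, 880, 16623, 20977, 789, 4159, 20319, 19553 and 14347 CPM in RKP. The stretches at 880 CPM or less were the first, the second, the third and the sixth. They held 390, 694, 631 and 577 of the 26948 barcodes in this gate. The median over the RKP stretches was 9253 CPM. In EKP the stretches lay between 2876 and 15660 CPM with a median of 8993 CPM. At high Epcam the stretches lay between 1544 and 3658 CPM in RKP and between 5397 and 9181 CPM in EKP, so these ranges did not overlap, while those at low Epcam did.

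The low-Epcam gate is not made up of epithelial counts alone. The summed level of 7 epithelial markers, the gating genes among them, was 35837 CPM in RKP and 49686 CPM in EKP at low Epcam, against 182458 CPM in RKP and 194951 CPM in EKP at high Epcam. In the low-Epcam gate 4 macrophage markers summed to 36018 CPM in RKP and 18529 CPM in EKP, 5 fibroblast markers to 24689 CPM in RKP and 51923 CPM in EKP, and 6 endothelial markers to 7089 CPM in RKP and 11446 CPM in EKP, with no marker at 0. Without barcodes that held a count of Ptprc, Cd68, Lum or Pecam1, which mark leukocytes, macrophages, fibroblasts and endothelium, 29.2% of the low-Epcam barcodes were left in RKP and 28.8% in EKP. Sox2 in those was 22154 CPM in RKP and 17656 CPM in EKP, higher than in the full gate in both sections. At high Epcam the same step left 2701 CPM in RKP and 7737 CPM in EKP.

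Genes that accompanied Sox2 were sought within the low-Epcam gate by comparing Sox2-positive barcodes with Sox2-negative barcodes matched on total counts, 19818 against 7117 in RKP and 11028 against 4743 in EKP. Areg, an EGF receptor ligand, had 16287 CPM in Sox2-positive and 2137 CPM in Sox2-negative RKP barcodes, and 4179 against 1185 CPM in EKP. Bmp2, a BMP family ligand, had 4965 against 876 CPM in RKP and 3828 against 1048 CPM in EKP. Ptprn2, a phosphatase-like protein of secretory granules, was 2.22 higher on the log2 scale in RKP and 2.67 in EKP. Ppargc1a, a coactivator of mitochondrial genes, had 1966 against 281 CPM in RKP and 436 against 123 CPM in EKP.

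The same comparison also named the endocytic receptor gene Lrp2, with log2 ratios of 1.76 in RKP and 2.04 in EKP, the procollagen processing enhancer Pcolce2 at 1.95 and 1.51, the mitotic gene Cenpf at 1.83 and 1.47, and the retinol carrier Rbp2 at 1.55 and 1.42. Lowest in Sox2-positive barcodes were Gabrp, a GABA receptor subunit, at -2.73 in RKP and -1.86 in EKP, the apical membrane gene Prom1 at -2.18 and -1.63, and the leukocyte genes Cybb at -1.65 in both and Ltc4s at -1.57 and -1.94. Of 293 genes, 14.3% were at least 2-fold higher and 36.9% at least 2-fold lower in Sox2-positive barcodes in RKP, against 12.3% and 20.5% in EKP. The 2-fold rule was met in both sections by 23 genes that were higher and 44 that were lower. The Notch target Hey1 had opposite directions in the sections, with 3578 CPM in Sox2-positive and 941 CPM in Sox2-negative RKP barcodes, but 425 and 772 CPM in EKP. That difference between sections was not tested. The leukocyte marker Ptprc had log2 ratios of -1.34 in RKP and -1.48 in EKP here, so Sox2-negative barcodes of this gate held more Ptprc counts. Of 6 endothelial markers, 5 in RKP and 6 in EKP were at least 2-fold lower in Sox2-positive barcodes, as were 3 of 3 neutrophil markers in RKP and 1 in EKP, 3 of 5 fibroblast markers in RKP and 0 in EKP, 1 of 4 macrophage markers in RKP and 2 in EKP, and 0 of 4 T cell markers in RKP and 4 in EKP. Of 7 epithelial markers, the gating genes Krt8 and Epcam among them, 6 in RKP and 2 in EKP were lower too. The list median log2 ratio was -1.74 in RKP and -0.71 in EKP. Epcam, which the gate holds at 0 to 1 counts, was among the lower markers in both sections, in EKP beside Cldn4 only. The part of these cell types in the other ratios was not tested.

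**Figure D3:**
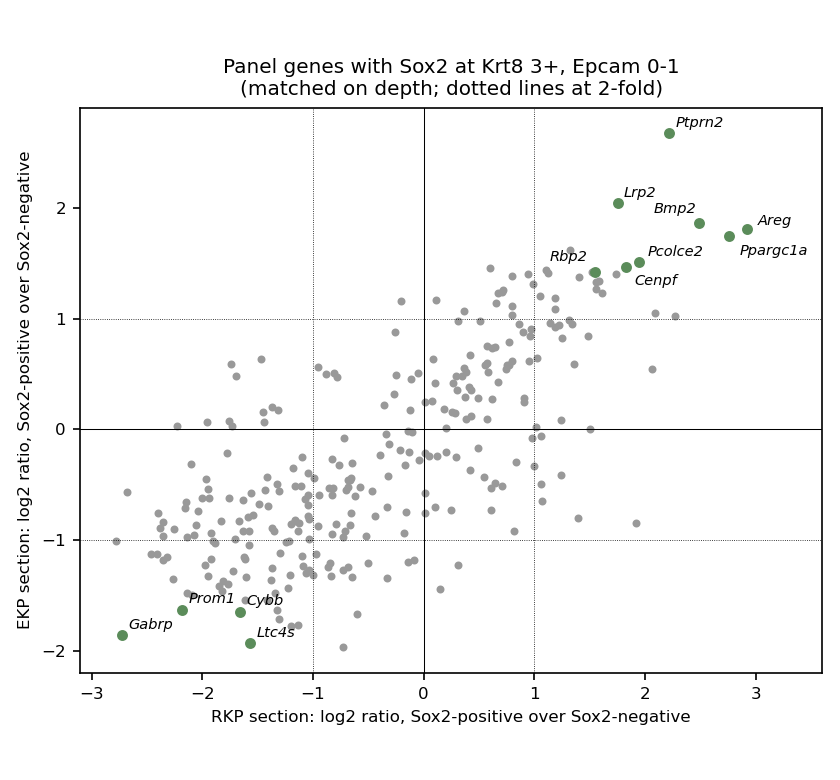
Log2 ratio of level in Sox2-positive over Sox2-negative Krt8 barcodes with 0 to 1 Epcam counts, in RKP (horizontal axis) and EKP (vertical axis), for 293 genes drawn as points. Areg lay at 2.92 in RKP and 1.81 in EKP, Ptprn2 at 2.22 and 2.67, and Hey1 at 1.92 and -0.85.

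At high Epcam the ratios of the leading genes were mostly under 2-fold in RKP. Mki67, a marker of proliferating nuclei, had 4653 CPM in Sox2-positive and 2617 CPM in Sox2-negative barcodes in RKP, and 3467 against 1048 CPM in EKP. The log2 ratios of Top2a were 0.77 in RKP and 1.64 in EKP, those of Ube2c 0.97 and 1.85, and those of Cenpf 0.98 and 1.68. The granule protein gene Scg2 stood at 1.32 in RKP, where it had 39.1 against 9.73 CPM and so lay under 100 CPM, and at 1.02 in EKP, and Insm1, a neuroendocrine transcription factor, at 1.19 and 0.96. Ptprc was lower, at -0.72 in RKP and -0.85 in EKP. Of 274 genes, 1.09% in RKP and 3.65% in EKP were at least 2-fold higher in Sox2-positive barcodes and 0.73% in each at least 2-fold lower, and no gene with 100 CPM or more in an arm of both sections met the rule in both.

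Sox2-rich barcodes also differed between sections in what else they held. Among barcodes with at least 5 Sox2 counts at low Epcam, Areg had 22232 CPM in RKP and 6049 CPM in EKP. Sox2-rich barcodes of the high-Epcam gate had 7384 CPM of Areg in RKP and 8370 CPM in EKP. Those outside the Krt8 gates, with 0 to 2 Krt8 and 0 to 1 Epcam counts, had 18993 CPM in RKP and 4110 CPM in EKP. Ppargc1a in Sox2-rich barcodes was 2617 CPM in RKP and 524 CPM in EKP at low Epcam, and 507 CPM in RKP and 18.6 CPM in EKP at high Epcam. Cdh1, the E-cadherin gene, was 816 CPM in RKP and 1186 CPM in EKP in the Sox2-rich barcodes of low Epcam, and 15079 CPM in RKP and 19894 CPM in EKP in those of high Epcam.

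Sox9 was higher in the RKP tumour in every gate with at least 50 barcodes in both sections. At high Epcam it had 7438 CPM in RKP (7398–7478) and 3499 CPM in EKP (3464–3533), a ratio of 2.13 (2.10–2.15), where 14.4% of genes passed 2-fold in favour of RKP. At low Epcam it had 4427 CPM in RKP (4372–4482) and 1393 CPM in EKP (1354–1432), a ratio of 3.18 (3.08–3.28), where 12.1% of genes passed 2-fold in favour of RKP. Its ranks from the RKP side were 66 of 465 and 31 of 472. The 10 stretches of barcodes at high Epcam lay between 6333 and 8658 CPM in RKP and between 2651 and 4253 CPM in EKP, so the ranges did not overlap. Those at low Epcam ran between 1650 and 5716 CPM in RKP and between 732 and 2371 CPM in EKP.

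Unlike Sox2, Sox9 was higher at high Epcam than at low Epcam in both tumours. The ratio was 1.68 in RKP (1.66–1.70), rank 84 of 427 genes, and 2.51 in EKP (2.44–2.59), rank 49 of 472, where 12.1% of genes were at least 2-fold higher at high Epcam. The EKP log2 ratio of 1.33 was less than 2-fold with gates after thinning, at 0.69, and without barcodes holding the other cell types' markers, at 0.96. Detection at high Epcam was 73.9% of barcodes in RKP and 49.5% in EKP, and at low Epcam 45.7% in RKP and 20.8% in EKP. Along Epcam counts of 0, 1, 2 to 4, 5 to 9, 10 to 19 and 20 or more, Sox9 had 4498, 4204, 4636, 6832, 7756 and 7480 CPM in RKP and 1389, 1406, 1908, 3082, 3646 and 3577 CPM in EKP. Both series were flat up to 1 Epcam count and flat again from 10 counts on, with the step between them. Without barcodes holding Ptprc, Cd68, Lum or Pecam1, Sox9 was 8379 CPM in RKP and 3934 CPM in EKP at high Epcam and 6251 CPM in RKP and 2026 CPM in EKP at low Epcam.

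Gates of other cell types held less Sox9, with the same direction between sections. Pecam1 barcodes had 2122 CPM in RKP and 911 CPM in EKP, a ratio of 2.33 and rank 44 of 469, where 11.9% of genes passed 2-fold in favour of RKP. Barcodes gated on Lum, a fibroblast proteoglycan, had 670 CPM in RKP and 499 CPM in EKP, a ratio of 1.34. Those gated on the macrophage gene Cd68 had 840 CPM in RKP and 266 CPM in EKP, and those on the neutrophil receptor gene Csf3r 791 CPM in RKP and 299 CPM in EKP. Epithelial markers summed to 42104 CPM in RKP and 44712 CPM in EKP in Pecam1 barcodes, and the part of such counts in these levels was not tested. Of the Sox9 counts in Pecam1 barcodes, 8516 in RKP and 4258 in EKP, those with 0 to 2 Krt8 counts held 1940 and 900. Cd3e barcodes had 742 CPM (659–833) in RKP and 231 CPM (163–318.9) in EKP, and Higd1b barcodes 613 CPM (427–852) in RKP and 231 CPM (141–357) in EKP. In RKP the gates on Cd68, Csf3r and Cd3e had overlapping intervals, as did those on Lum, Higd1b, Cd3e and the lymphatic genes, and in EKP those on Csf3r, Cd68, Cd3e and Higd1b. Higher Sox9 than in the high-Epcam gate stood in barcodes with 3 or more counts of the basal keratin Krt5, a gate of 2759 RKP barcodes and 0 EKP barcodes, at 10358 CPM (10070–10653). RKP barcodes gated on the liver and lung secretory genes Ambp and Sftpd had 8526 CPM.

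Genes beside Sox9 differed little between Sox9-positive and Sox9-negative barcodes. At high Epcam, 50189 Sox9-positive against 17714 Sox9-negative barcodes in RKP and 19852 against 20282 in EKP gave no gene that was at least 2-fold higher, with 5.76% of 278 genes at least 2-fold lower in RKP and 0.36% in EKP. Lgr5, the receptor that marks gut stem cells, had 1975 CPM in Sox9-positive and 1450 CPM in Sox9-negative barcodes in RKP, and 399 against 241 CPM in EKP. The tight junction gene Cldn2 had log2 ratios of 0.28 in RKP and 0.65 in EKP, and the phosphate transporter gene Slc34a2 0.53 and 0.37. The 4 lowest were Tie1, Eng, Calcrl and Plvap, which endothelium is known to express, with Tie1, a receptor kinase, at -1.04 in RKP and -1.02 in EKP and Eng, a TGF-beta co-receptor, at -0.95 and -0.86. Markers of other cell types were also lower with Sox9 in the median: 6 endothelial ones by log2 ratios of -0.87 in RKP and -0.78 in EKP, 3 T cell ones by -1.14 and -0.57, 3 neutrophil ones by -0.88 and -0.53, 4 macrophage ones by -0.84 and -0.41 and 5 fibroblast ones by -0.75 and -0.46, and their part in the other ratios was not tested. At low Epcam the leading gene was Vegfa, the vascular growth factor, with 9071 against 4741 CPM in RKP and 13435 against 7328 CPM in EKP. The synaptic vesicle fusion gene Snap25 followed with log2 ratios of 1.18 in RKP, where it lay under 100 CPM in both arms, and 0.74 in EKP, Ndrg1, a gene known to respond to low oxygen, with 0.74 and 0.92, and the bicarbonate transporter gene Slc4a4 with 0.67 and 0.84. Of 288 genes there, 1.04% were at least 2-fold higher and 5.9% at least 2-fold lower in RKP, against 1.04% and 0.694% in EKP, and none met the rule in both.

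Detection of Sox2 differed little with Sox9 at high Epcam, and Sox2 was found somewhat more often beside Sox9 at low Epcam. To compare barcodes at equal depth, each was thinned to 80 counts. At high Epcam, Sox2 was then detected in 15.2% of Sox9-positive RKP barcodes (14.8–15.6) and 15.9% of Sox9-negative ones (15.5–16.2), and in 37.2% (36.2–38.2) against 39.5% (38.91–39.999) in EKP. At low Epcam the shares were 60.7% (59.5–61.8) against 57.5% (56.8–58.2) in RKP and 56.6% (54.2–59.1) against 48.4% (47.6–49.3) in EKP. Without thinning, the shares at high Epcam were 38.5% against 33.1% in RKP and 72.1% against 68.8% in EKP, the opposite order in both. Within depth bins from 80, 160 and 320 counts, unthinned EKP shares with minus without Sox9 were -2.05, -0.075 and -0.99 percentage points. The RKP bins gave -1.995, 1.23 and 2.67 points. In EKP these bins kept the thinned order, while in RKP those from 160 and 320 counts did not.

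The combinations showed which gene a barcode held alone. At high Epcam, 35.3% of thinned RKP barcodes held Sox9 without Sox2 and 9.25% Sox2 without Sox9, against 13.9% and 30.6% in EKP, and both genes were found in 6.31% in RKP and 8.25% in EKP. At low Epcam, 42.3% of RKP and 42.9% of EKP barcodes held Sox2 alone, 10.2% of RKP and 4.35% of EKP barcodes held Sox9 alone, and 15.8% of RKP and 5.70% of EKP barcodes held both. In Pecam1 barcodes Sox17 alone was found in 9.98% in RKP and 12.9% in EKP, and all 3 genes together in 16 RKP and 26 EKP barcodes.

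**Figure D4:**
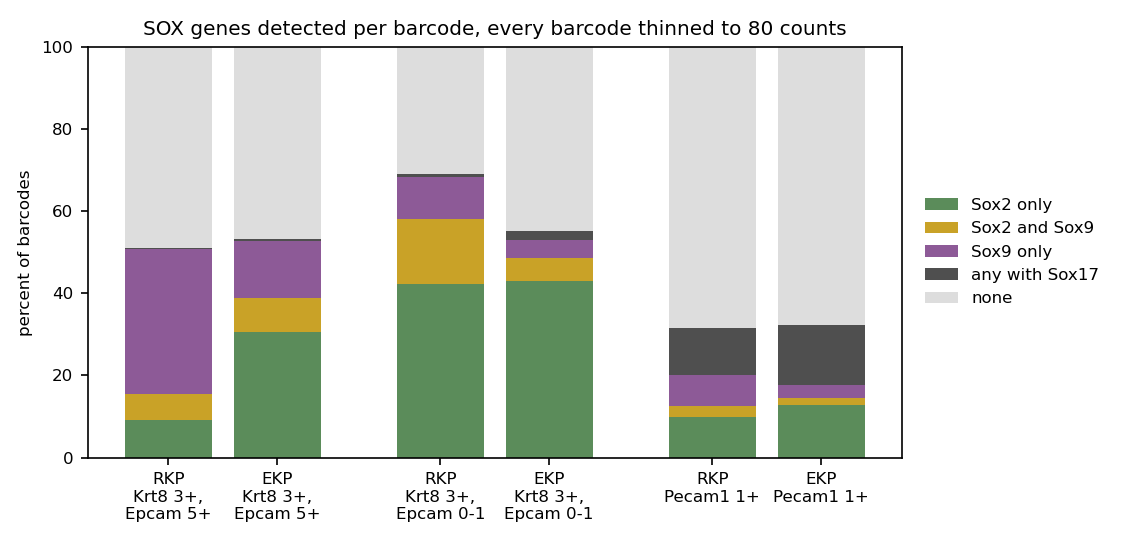
Share of barcodes (vertical axis, percent) with detection of none, 1 or several of Sox2, Sox9 and Sox17 after each barcode was thinned to 80 counts, by gate, for the RKP and EKP sections. At high Epcam, Sox9 alone was found in 35.3% of RKP and 13.9% of EKP barcodes, and Sox2 alone in 9.25% of RKP and 30.6% of EKP barcodes.

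Sox17 was highest in Pecam1 barcodes in both tumours. In these barcodes, 20650 in RKP and 22472 in EKP, it had 1596 CPM in RKP (1557–1635) and 2078 CPM in EKP (2037–2120), a ratio of 0.768, and was detected in 20.2% of barcodes in RKP and 25.7% in EKP. Its log2 ratio of -0.38 ranked 317 of 469 genes from the RKP side and did not reach 2-fold. That of the whole sections did at -1.39, but not under the scaling to the median gene at -0.95 or as mean counts per barcode at -0.87, and it was -2.29 with every barcode weighted alike. Pecam1 barcodes were 10.3% of the deep barcodes in RKP and 16.9% in EKP. At high Epcam Sox17 had 28.3 CPM in RKP and 67.3 CPM in EKP. At low Epcam it had 105 CPM in RKP and 326 CPM in EKP, 3.11-fold higher in EKP, where 26.7% of genes passed 2-fold in favour of EKP. Sox17 at high over low Epcam had a log2 ratio of -1.89 in RKP and -2.28 in EKP, where 37.5% and 37.9% of genes were at least 2-fold lower. Over the 10 stretches the Pecam1 gate had between 1125 and 2064 CPM in RKP and between 1471 and 2913 CPM in EKP, overlapping ranges.

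Next after the Pecam1 gate came the pericyte gate of Higd1b, 326 RKP and 453 EKP barcodes, where Sox17 was 1103 CPM in RKP (848–1411) and 1180 CPM in EKP (962–1432), intervals that overlapped. A Pecam1 count was also held by 52.8% of those barcodes in RKP and 58.1% in EKP. Lum barcodes had 196 CPM (182–210) in RKP and 179.5 CPM (167–193) in EKP, and Krt8 barcodes with 2 to 4 Epcam counts 132 CPM (119–147) in RKP and 412 CPM (382–445) in EKP. Csf3r barcodes had 109 CPM (87.0–135) in RKP and 179 CPM (146–217) in EKP, Cd3e barcodes 84.5 CPM (58.1–119) in RKP and 113 CPM (66.7–178) in EKP, and Cd68 barcodes 52.6 CPM (45.0–61.0) in RKP and 119 CPM (104–135) in EKP. The Cd3e intervals of the sections overlapped. In RKP the intervals of the Csf3r, low-Epcam, lymphatic and Cd3e gates overlapped with each other.

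The level followed Pecam1 itself. In barcodes with 0 to 2 Krt8 counts and 0, 1, 2, 3 to 4 and 5 or more Pecam1 counts, Sox17 had 38.5, 450, 1688, 3206 and 4485 CPM in RKP and 79.1, 596, 2096, 3714 and 5332 CPM in EKP. At 5 or more Pecam1 counts 54.3% of RKP and 60.9% of EKP barcodes held Sox17. Sox2 and Sox9 ran the other way: Sox2 had 611 CPM in RKP and 758 CPM in EKP at 5 or more Pecam1 counts, against 3184 CPM in RKP and 1469 CPM in EKP at none. Sox9 had 434 CPM in RKP and 175 CPM in EKP at 5 or more Pecam1 counts, against 1968 CPM in RKP and 570 CPM in EKP at none. In barcodes thinned to 80 counts, Pecam1 was detected in 75.5% of Sox17-positive and 5.97% of Sox17-negative barcodes of all gates in RKP, and in 71.9% and 9.41% in EKP.

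**Figure D5:**
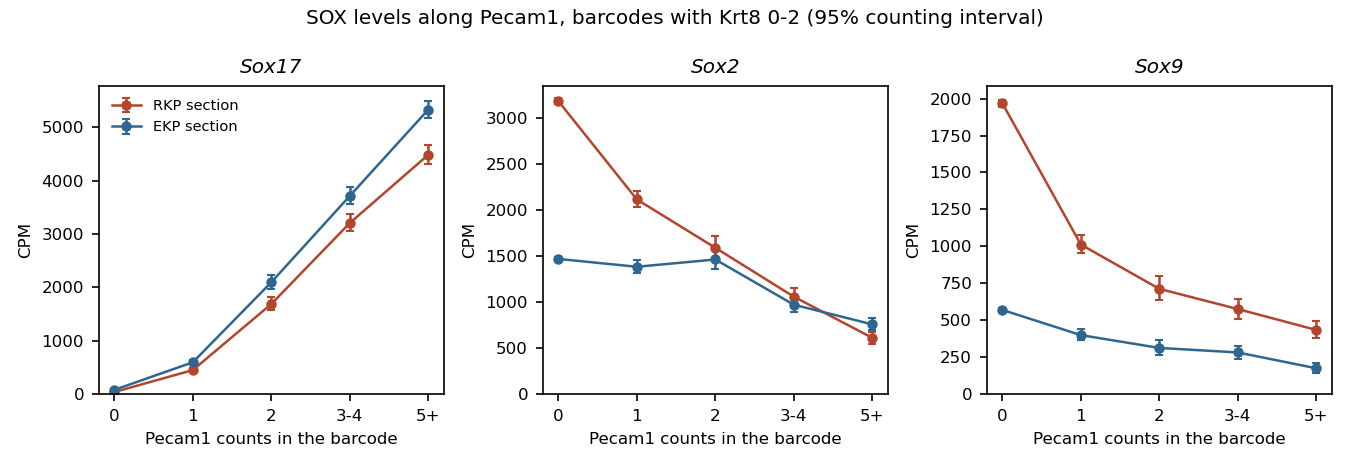
Levels of Sox2, Sox9 and Sox17 in CPM (vertical linear axes) in barcodes with 0 to 2 Krt8 counts by Pecam1 count (horizontal axis) for the RKP and EKP sections, with exact 95% Poisson intervals as bars. Sox17 was 38.5 CPM in RKP and 79.1 CPM in EKP at no Pecam1 count and 4485 CPM in RKP and 5332 CPM in EKP at 5 or more, while Sox2 and Sox9 were lower at 5 or more than at none.

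Within the Krt8 gates, barcodes with Sox17 held Pecam1 more often than barcodes without it, and those with Pecam1 also belong to the Pecam1 gate. Among thinned high-Epcam Krt8 barcodes, Pecam1 was detected in 50 of 125 barcodes with Sox17 and in 1.33% of those without in RKP, and in 32.6% and 2.50% in EKP. At low Epcam the shares were 62.9% and 4.10% in RKP and 61.1% and 8.26% in EKP. The 6 endothelial markers summed to 1707 CPM in RKP and 2953 CPM in EKP at high Epcam and to 7089 CPM in RKP and 11446 CPM in EKP at low Epcam, both higher in EKP as Sox17 was. Sox17 in the lymphatic gate of Prox1 and Mmrn1, which held 957 RKP and 22 EKP barcodes, was 87.3 CPM in RKP (46.5–149, from 13 counts).

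Within the Pecam1 gate, Sox17-positive barcodes, 4167 against 16451 negative ones in RKP and 5763 against 16672 in EKP, held more of the blood vessel genes. Vwf, which encodes the clotting factor stored by endothelium, had 21632 CPM in Sox17-positive and 5995 CPM in Sox17-negative barcodes in RKP, and 18016 against 5163 CPM in EKP. The capillary lipase anchor Gpihbp1 had log2 ratios of 1.87 in RKP and 1.77 in EKP, the vessel-destabilising ligand Angpt2 1.57 and 1.81, the receptor kinase gene Tie1 1.57 and 1.59, and the VEGF receptor gene Kdr 1.55 and 1.51. Hey1, a Notch target of arterial endothelium, had 5152 against 1857 CPM in RKP and 5042 against 1536 CPM in EKP. All 6 endothelial markers, Pecam1 among them, were at least 2-fold higher in both sections, with a median log2 ratio of 1.500 in RKP and 1.49 in EKP beside -0.51 and -0.64 over all genes, where 8.25% of 303 genes in RKP and 9.24% in EKP were at least 2-fold higher. The 4 genes lowest by the ratio nearer to 0 of both sections were Capns2, at -2.08 in RKP and -2.19 in EKP, the T cell gene Cd3e at -2.06 and -1.98, the myeloid receptor gene Cd300lf at -1.87 and -1.88, and the T cell gene Cd3d at -2.27 and -1.80, where 35% of genes in RKP and 31% in EKP were at least 2-fold lower.

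The ratios of lymphatic genes differed between the sections in this comparison. Prox1, the transcription factor of lymphatic endothelium, had a log2 ratio of -3.47 in RKP and 0.42 in EKP, Mmrn1 -3.45 and -0.10, and the hyaluronan receptor gene Lyve1 -2.84 and 0.70. These 3 genes summed to 3381 CPM in Pecam1 barcodes in RKP and 428 CPM in EKP. In EKP that was 46.9 CPM of Prox1, 97.4 CPM of Mmrn1 and 284 CPM of Lyve1, and the lymphatic gate there held 22 barcodes. The EKP ratios therefore rest on low levels.

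The sum of a gene's counts over non-overlapping classes shows in which barcodes each SOX gene was counted. Of all Sox2 counts, 46.7% in RKP and 26.5% in EKP came from low-Epcam Krt8 barcodes, and 21.9% in RKP and 51.5% in EKP from high-Epcam ones. Sox9 counts lay in high-Epcam barcodes in both, 65.4% in RKP and 67.5% in EKP, with 12.0% in RKP and 8.47% in EKP at low Epcam. Sox17 counts came from Pecam1 barcodes with 0 to 2 Krt8 counts for 68.5% in RKP and 53.4% in EKP, and from barcodes under 80 counts for 6.45% in RKP and 23.9% in EKP.

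Likeness to the panel's other genes was described by Pearson's r of log2(CPM + 10) over 24 points, which are the gates of both sections, share barcodes and panel depth, and are no replicates. Most like Sox2 were Pcolce2 and Areg at 0.93, the kinase gene Pik3ca at 0.88, Anxa2, an annexin, at 0.87 and Aqp5, a water channel gene, at 0.86. Among those most like Sox9 were the annexin gene Anxa8 at 0.93, Tmem147 and the tetraspanin gene Tspan8 at 0.91 and Fxyd3, a regulator of the sodium pump, at 0.90. Most like Sox17 were Vwf at 0.94, Gpihbp1 at 0.93, the endothelial lectin gene Clec14a at 0.89, Aqp1, a water channel gene, at 0.88 and Rgs5, a gene of pericytes and vessels, at 0.87.

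Lists of stem cell, neuroendocrine and gut genes gave mixed counts between sections. Of 7 stem cell and WNT pathway genes on the panel, Axin2, Lgr5 and Prom1 passed 2-fold in favour of RKP at high Epcam and none the other way, beside 14.4% of all genes in favour of RKP, with a median log2 ratio of 0.85 beside -0.32 over all genes. At low Epcam, 3 of the list passed in favour of RKP, namely Prom1, the heparin-binding factor Ptn and the WNT inhibitor Wif1, and 1 in favour of EKP, the WNT inhibitor Sfrp1, beside 12.1% and 26.7% of all genes. Of 7 neuroendocrine genes, none passed 2-fold in favour of RKP and 7 in favour of EKP over whole sections, with a median log2 ratio of -2.30, beside 34.8% in favour of EKP and a median of -0.43 over all genes. Within gates 3 of the 6 measured above the control probes passed in favour of EKP at high Epcam, beside 24.7% of all genes, and 3 of 6 at low Epcam, beside 26.7%. The Krt8 gate of Scg2, Snap25 and Ptprn2 held Sox9 at 8204 CPM (7459–9004) in RKP and 2795 CPM (2644–2953) in EKP. All 12 gut and gastric genes on the panel, such as the gastric mucin gene Muc5ac, stood above the control probes in at least 1 section, and at high Epcam 5 passed 2-fold in favour of RKP and 3 in favour of EKP, beside 14.4% and 24.7% of all genes, so that the EKP count was near the share over all genes.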

How the data were processed

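Per the file headers, the authors deposited for each section a Xenium cell-by-feature matrix of whole-number counts, unnormalized, 1 value per transcript count of a feature in a segmented cell. The sources used here give neither segmentation settings nor a genome build. The submitters' processing notes name Seurat 4.4.0 without a stated role. The panel held 479 genes (379 standard and 100 added), 41 control codewords, 20 control probes and 1 codeword without assignment, and only genes entered totals.

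Counts were summed over barcodes and divided by gene counts (CPM). Genes above the highest negative control probe in at least 1 section of a comparison were kept. Probe numbers per gene differ, so levels of different SOX genes were not set against each other. Barcodes under 80 counts stayed out of all but whole-section values. For joint detection each barcode was thinned to 80 counts with a fixed seed. For positive against negative barcodes, negative barcodes were weighted to the depths of the positive ones in bins from 80, 160, 320 and 640 counts, and log2 ratios used CPM + 10. Doublets were not called. Segmentation can assign neighbours' transcripts to a barcode. For shares and ranks over all genes, counts below the highest negative control probe count of a gate were raised to it. The floor was at least 3 counts. Over whole sections it was 162 counts in RKP and 311 counts in EKP.

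The SOX genes were always named, with the 5 genes of highest Pearson r over gates, the 8 highest and 4 lowest genes in positive against negative barcodes (ranked by the smaller log2 ratio of both sections, at least 100 CPM in either arm), and up to 5 examples per list; 1 gene that the rule names is not reported here. Genes and lists were chosen with earlier results of these data known. Hey1, Ptprc and Cdh1 belong to such lists. Alternatives were median-of-ratios scaling, counts per barcode, equal weight per barcode, other count minimums, stricter gates and gates after thinning. Leaving out barcodes with Ptprc, Cd68, Lum or Pecam1 was added after seeing the data. Scripts used Python 3.11.15, numpy 2.4.6, scipy 1.17.1, pandas 2.3.3 and matplotlib 3.10.9 and were tested on simulated data.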

Additional observations from a re-analysis of the deposited data

Results flagged for a closer look

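The RKP over EKP log2 ratio of Sox2 had opposite directions at both ends of Epcam among Krt8 barcodes. It was -1.56 at 5 or more Epcam counts, with 2463 CPM in RKP and 7242 CPM in EKP, and 0.53 at 0 to 1 Epcam counts, with 17023 CPM in RKP and 11805 CPM in EKP. With 1 section per line the difference between these ratios was not tested. The low-Epcam log2 ratio was 0.048 with gates after thinning, and the ranges of the 10 stretches at low Epcam overlapped between sections.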

How the results depend on the processing

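No paired analysis was possible because there was 1 section per line, and for the same reason no replicate could be left out. The sign of the RKP over EKP ratio was kept under every alternative for Sox9 and Sox17 in all gates tried and for Sox2 at high and low Epcam. It was not kept for Sox2 over whole sections, where 3 of 6 alternatives turned it, or in Pecam1 barcodes, where values ran between -0.31 and 0.37. The cause of each shift was not tested.

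Median-of-ratios scaling gave, for RKP over EKP, Sox2 0.32 over whole sections, -1.22 at high and 0.93 at low Epcam; Sox9 1.77, 1.42 and 2.07; and Sox17 -0.95 over whole sections. For high over low Epcam it gave Sox2 -2.10 in RKP and 0.083 in EKP, a turned sign, and Sox9 1.43 in RKP and 2.12 in EKP. It moved the genes at least 2-fold higher in RKP to 68 over whole sections, against 39, and to 91 at low Epcam, against 57, and those higher in EKP to 64 at high Epcam, against 115, and to 67 at low Epcam, against 126. Mean counts per barcode gave, in the same order, Sox2 0.40, -1.62 and 0.42; Sox9 1.86, 1.02 and 1.56; Sox17 -0.87 over whole sections and -0.48 in Pecam1 barcodes; and for high over low Epcam Sox2 -2.43 in RKP and -0.39 in EKP and Sox9 1.11 in RKP and 1.65 in EKP. With every barcode weighted alike Sox2 was 0.15 over whole sections and 0.47 at low Epcam, Sox9 1.27 and 1.59, Sox17 -2.29 over whole sections, and high over low Epcam Sox2 -2.77 in RKP and -0.73 in EKP and Sox9 1.22 in EKP.

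A minimum of 160 counts gave whole-section values of -0.27 for Sox2, 1.29 for Sox9 and -1.18 for Sox17, Sox2 0.57 at low Epcam, and high over low Epcam Sox2 -2.81 in RKP and -0.69 in EKP and Sox9 0.78 in RKP and 1.41 in EKP. A minimum of 20 counts gave Sox17 -1.27 over whole sections. Krt8 at 5 or more gave Sox2 0.44 at low Epcam, and high over low Epcam Sox2 -2.99 in RKP and -0.99 in EKP and Sox9 0.64 in RKP and 1.18 in EKP. Gates after thinning gave Sox2 -1.64 at high and 0.048 at low Epcam, Sox9 1.11 and 1.30, and high over low Epcam Sox2 -2.40 in RKP and Sox9 0.50 in RKP and 0.69 in EKP. Pecam1 at 3 or more gave Sox17 -0.25. Without barcodes holding Ptprc, Cd68, Lum or Pecam1, Sox2 was -1.52 at high and 0.33 at low Epcam, and high over low Epcam was Sox2 -3.04 in RKP and -1.19 in EKP and Sox9 0.42 in RKP and 0.96 in EKP.

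Sox2 detection with minus without Sox9 in unthinned barcodes was 5.40 percentage points in RKP at high Epcam, against -0.70 thinned, and -1.995, 1.23 and 2.67 at depths from 80, 160 and 320 counts, each up to the next bin. It was 10.3 points in RKP at low Epcam, with 9.77 and 13.3 at the deeper levels. In EKP at high Epcam it was 3.37 points, against -2.24 thinned, and -2.05, -0.075 and -0.99 at depths from 80, 160 and 320 counts. Depth limits detection in barcodes near 80 counts, and with 1 section per line no value above carries tumour-to-tumour error.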
